A study of Mus musculus with 6 samples.

Results

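The 50 genes described here carry newly made proteins into the endoplasmic reticulum (ER) and attach, build and trim the sugar trees (N-glycans) that these proteins receive there. They were chosen by function, as subunits and enzymes of these steps, but with earlier results of these data known. They were read by the array probe sets annotated to exactly 1 of them. Of the 50, 45 had such a probe set, among 12393 genes measured this way in all. Srp54a and Sec61g were read only by probe sets that several genes share, and Srp72, Alg6 and Alg8 by none with a single name, so these 5 have no value below. Where a gene had several probe sets, the one with the highest mean over all arrays stands for it.

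A protein bound for secretion begins with a signal peptide, which the signal recognition particle (SRP) catches as it leaves the ribosome. The particle docks on its receptor at the ER, the chain passes through the Sec61 channel (the translocon), and signal peptidase cuts the signal peptide off. Oligosaccharyltransferase then moves a preassembled glycan from the lipid dolichol onto asparagines of the chain, and glucosidases and mannosidases trim that glycan while the protein folds. Hepatocytes secrete most plasma proteins by this route, and alpha-1 antitrypsin, itself an N-glycosylated plasma protein, is among them.

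Livers of wild-type mice and of PiZ transgenic mice were compared, all on a C57BL/6 background and 6 weeks old, with 3 arrays in each group. PiZ mice carry the human gene for the Z variant of alpha-1 antitrypsin, which misfolds and is retained in the hepatocyte ER, and they keep their own mouse antitrypsin genes. Values are log2 intensities of biotin-labelled total liver RNA on a one-colour Affymetrix array. A change is the PiZ mean minus the wild-type mean on the log2 scale, with its standard error (SE), n = 3 per group. A gene was called higher or lower at an adjusted p under 0.05 from limma, adjusted over all 12393 genes. Whole liver was measured, so fewer cells of a type and less RNA per cell cannot be told apart.

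The PiZ arrays were not alike in their control transcripts, whose 3′ to 5′ difference is a usual sign of RNA quality. On them, the signal of the 3′ end of the Gapdh control transcript exceeded that of its 5′ end by 4.39 (replicate 2) and 4.01 (replicate 3) on the log2 scale, but by only 1.99 in replicate 1, close to the 1.49 to 2.06 of the wild-type arrays. The same difference for actin was 4.89 and 4.66 for replicates 2 and 3 but 3.02 for replicate 1, within the 2.90 to 3.34 of the wild-type arrays. Of 6 measured hepatocyte markers 1 (Fgb) was called lower, and their summed linear intensity ran from 112700 to 130300 in PiZ against 144000 to 145300 in wild-type, with albumin near the top of the scale in every array. Of the Kupffer cell markers, 3 of 6 (Clec4f, Cd5l, Marco) were called higher, with sums of 8203 to 9913 in PiZ against 6662 to 6895, and of the neutrophil markers 2 of 5 (S100a8, S100a9), with sums of 486.8 to 682.9 against 113.7 to 175.3. S100a8 and S100a9 dominated the PiZ neutrophil sums. The dim Ngp, Mpo and Camp changed by 0.23, 0.04 and 0.19 and were not called. Endothelial, stellate, cholangiocyte and plasma or B cell markers had 0 calls at adjusted p under 0.05 from limma, with sums of 1901 to 2172, 6288 to 8982, 152.3 to 211.7 and 110.2 to 137.8 in PiZ. Their wild-type sums were 2201 to 2301, 6996 to 7688, 145.9 to 155.7 and 118.1 to 136.6. Pancreatic acinar markers, from another secretory cell, summed to 507.8 to 663.1 in PiZ and 821.5 to 917.5 in wild-type, with 1 of 6 higher and 1 lower. The lower one, Cela1 (-1.07), was much the brightest and dominated these sums. The higher one was Cela2a (0.77), and the median change of the 6 was 0.21. The part of these values in the results below was not tested, except where a fit with the control transcript difference is given.

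More of the entry and glycosylation genes were called higher in PiZ than lower. limma called 13 of the 45 higher (28.9%) and 1 lower (2.22%), while over all genes it called 11.3% higher and 12.3% lower. Those higher were Srprb, Srp68 and Srp19 of the SRP system, Sec61a1 of the channel, Sec11c of signal peptidase, Rpn1, Stt3a and Ddost of oligosaccharyltransferase, Gmppb, Alg12, Gfpt1 and Alg2 of sugar assembly, and Uggt1, which checks folding. The single gene called lower was Ganab, a glucosidase. The median change of the 45 was 0.24, beside 0.08 for all genes, 29 of them were above 0 (64.4%, against 58.8% of all genes), and single members ran from -1.27 (Dpm1) to 1.54 (Gmppb). At least 1.5-fold higher means were seen for 12 members (8.3% of all genes) and at least 2-fold for 4 (2.65% of all genes), namely Gmppb, Srprb, Alg12 and Gfpt1. In 19 members (42.2%) all PiZ arrays lay above all wild-type arrays, against 24.9% of all genes, and in 2 members, Sec61a2 and Ganab, all lay below, against 19.9% of all genes. The other 24 overlapped or were split between PiZ arrays. As a group these are bright genes, with a median level of 9.48 against 6.76 over all genes, so few of them sit near background. With dim genes (below 6) left out, limma called 12 of 43 members higher and 1 lower. Over all 7398 genes then left, it called 14.9% higher and 19.9% lower.

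**Figure D1:**
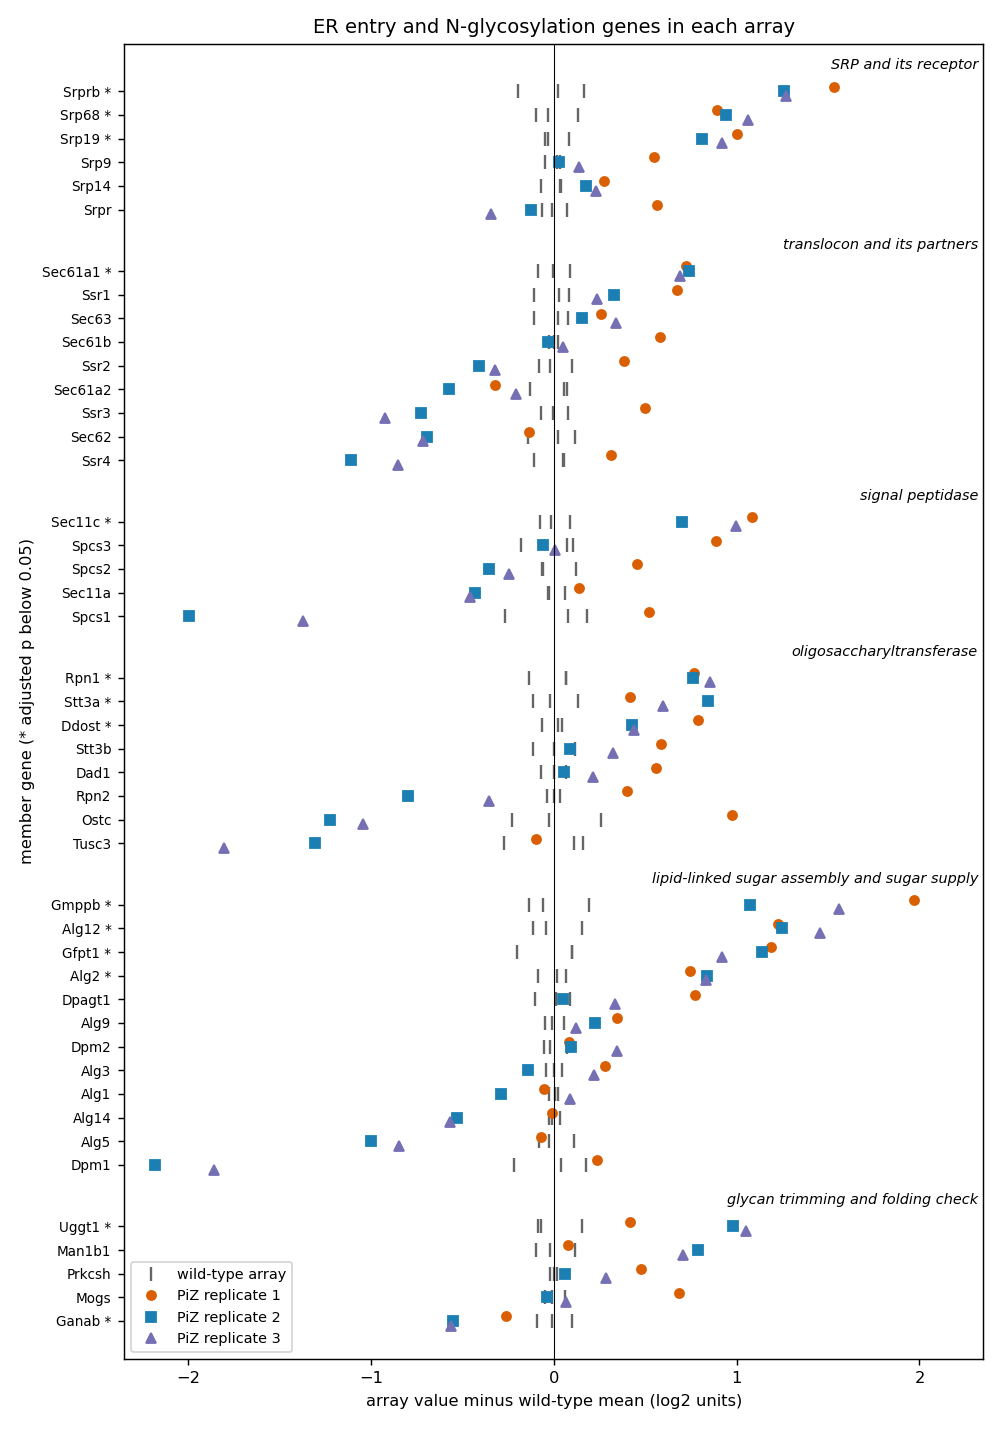
Each row is one of the 45 measured genes, grouped by role, and each point is one array's log2 intensity minus the wild-type mean of that gene, with separate symbols for the wild-type arrays and for each PiZ replicate. The PiZ replicate 1 points lie right of the wild-type points for 37 of 45 genes, while those of PiZ replicates 2 and 3 do so for 20 and 28.

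The unfolded protein response raises many genes of this pathway through short elements in their promoters, the ER stress response element (ERSE) and its relatives, which the factors ATF6 and XBP1 read. The 250 bases before the gene start (RefSeq, GRCm38.p6) were available for 39 of the 50 genes, 7 of them called higher. They were searched on both strands for ERSE (CCAAT, 9 bases of any kind, CCACG) and for its CCACG end alone. A gene was counted if any of its windows held a match. A full ERSE was found in 1 of the 39 genes, Alg12, starting 220 bases before the gene start. It was found in 0.13% of all 27025 genes with a window. CCACG was found in 16 of the 39 (41.0%), against 31.0% of all genes with a window. It was found in 5 of the 7 called higher (Alg12, Gfpt1, Rpn1, Srprb and Stt3a, not Ddost or Uggt1). Of the 27 measured ones that were not called higher, 10 had it. The related ACGTGG reads CCACGT on the other strand, so each of its matches is also a CCACG match and is not separate from it. ACGTGG was found in 7 of the 39 (Alg6, Gfpt1, Sec63, Spcs1, Srprb, Ssr1 and Ssr3), all counted above for CCACG, and in 7.84% of all genes with a window. ERSE-II (0.037% of all genes with a window), the element TGACGTGG (0.603%) and the C/EBP-ATF element TGATGNAAT (0.91%) were found in 0 of the 39. These matches describe letters in a window, not binding. The 4 windows below belong to genes called higher, Alg12 for its full element, Srprb and Gfpt1 for their several matches and Rpn1 for its 5 called probe sets, and they show how the matches lie. Capitals mark CCACG on either strand and, in Alg12, also the CCAAT of its ERSE. Each runs 5′ to 3′ toward the gene start on the gene's strand: Alg12 is chr15:88819319-88819568 on the minus strand, Srprb is chr9:103202066-103202315 on the minus strand, Gfpt1 is chr6:87042596-87042845 on the plus strand, and Rpn1 is chr6:88084223-88084472 on the plus strand.
Alg12: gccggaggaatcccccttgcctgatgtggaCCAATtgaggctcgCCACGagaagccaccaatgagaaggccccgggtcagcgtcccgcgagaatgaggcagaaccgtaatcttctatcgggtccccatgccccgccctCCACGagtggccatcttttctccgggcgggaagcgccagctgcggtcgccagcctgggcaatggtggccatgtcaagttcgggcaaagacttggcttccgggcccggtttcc
Srprb: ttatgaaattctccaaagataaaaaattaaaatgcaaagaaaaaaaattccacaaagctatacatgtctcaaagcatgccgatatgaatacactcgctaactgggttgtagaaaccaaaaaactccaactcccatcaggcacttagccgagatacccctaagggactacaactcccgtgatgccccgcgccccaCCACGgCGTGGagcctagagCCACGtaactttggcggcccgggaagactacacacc
Gfpt1: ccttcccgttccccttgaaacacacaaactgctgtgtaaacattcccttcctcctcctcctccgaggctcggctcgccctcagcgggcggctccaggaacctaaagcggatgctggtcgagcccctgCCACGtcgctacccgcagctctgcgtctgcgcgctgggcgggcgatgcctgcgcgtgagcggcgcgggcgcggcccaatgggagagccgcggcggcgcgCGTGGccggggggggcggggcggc
Rpn1: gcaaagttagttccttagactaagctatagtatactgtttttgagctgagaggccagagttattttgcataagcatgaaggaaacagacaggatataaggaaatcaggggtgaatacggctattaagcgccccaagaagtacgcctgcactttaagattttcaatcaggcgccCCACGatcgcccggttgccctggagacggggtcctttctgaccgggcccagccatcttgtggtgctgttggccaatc
In Srprb 3 matches stand close together, at 56, 50 and 36 bases before the start, whereas Rpn1 holds 1, at 77 bases.

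The SRP system gave the highest median change of the 6 roles, 0.58, and 3 of its 6 measured genes were called higher and 0 lower. Srprb, the membrane-anchored GTPase that holds the SRP receptor at the ER and whose promoter is printed above, read 7.14, 6.99 and 6.78 in wild-type and 8.50, 8.23 and 8.24 in PiZ. The groups were far apart, and PiZ replicate 1 was the highest array. The change was 1.35 (SE 0.14, adjusted p = 0.00126), a 2.56-fold higher mean. Srp68, which pairs with Srp72 in the particle, read 8.86, 9.02 and 8.79 in wild-type and 9.78, 9.83 and 9.95 in PiZ, a change of 0.97 (SE 0.11, adjusted p = 0.00221). Srp19, which helps to assemble the particle on its RNA, read 9.70, 9.56 and 9.58 in wild-type and 10.62, 10.43 and 10.54 in PiZ, a change of 0.91 (SE 0.11, adjusted p = 0.00225). For both genes the PiZ arrays lay close together and above every wild-type array. Srp14 and Srp9, the pair that slows the ribosome while the particle docks, were not called: Srp14 was 0.23 higher (SE 0.10, adjusted p = 0.137) with groups that did not overlap, and Srp9 0.24 higher (SE 0.15, adjusted p = 0.266), with PiZ replicate 1 at 11.45 and the other PiZ arrays at 10.93 and 11.04 beside wild-type at 10.85 to 10.93. The receptor's other subunit, Srpr, moved unlike Srprb. Its wild-type values were 10.05, 9.91 and 9.97, and PiZ replicate 1 was above them all at 10.54 while the other PiZ arrays were below them all at 9.86 and 9.64, so that its mean change was 0.03 (SE 0.22, adjusted p = 0.925).

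Around the channel, 1 of 9 measured genes was called higher, 0 lower, and the median change was -0.11. The called gene was Sec61a1, which forms the pore. It read 11.75, 11.84 and 11.67 in wild-type and 12.48, 12.49 and 12.44 in PiZ, a change of 0.72 (SE 0.10, adjusted p = 0.00427). The PiZ arrays differed from each other by less than the wild-type arrays did. Its paralogue Sec61a2, a dim gene, read 4.81 to 5.02 in wild-type and 4.62, 4.37 and 4.73 in PiZ, lower in every array, but the change of -0.37 (SE 0.13) missed the threshold with an adjusted p of 0.079. Sec61b, the small subunit of the channel, changed by 0.20 (SE 0.17, adjusted p = 0.398), with only PiZ replicate 1, at 12.39, above the wild-type range of 11.78 to 11.83 by more than 0.1.

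The channel's partners did not share a direction. Ssr1, Ssr2, Ssr3 and Ssr4 are the subunits of the translocon-associated protein complex (TRAP), which helps weak signal peptides open the channel. Ssr1 had the smallest p of the genes around the channel that were not called, and it read 10.87, 10.93 and 10.73 in wild-type and 11.52, 11.18 and 11.08 in PiZ, a change of 0.41 (SE 0.14, adjusted p = 0.0694). All PiZ arrays were above all wild-type arrays. The other 3 subunits split between PiZ arrays. Ssr3 read 11.30, 11.22 and 11.15 in wild-type against 11.72 in PiZ replicate 1 but 10.50 and 10.30 in the other PiZ arrays (change -0.38, SE 0.34, adjusted p = 0.42). Ssr4 read 11.80, 11.64 and 11.80 in wild-type against 12.06 in PiZ replicate 1 but 10.64 and 10.90 in the others (change -0.55, SE 0.33, adjusted p = 0.251), and Ssr2 had the same pattern on a smaller scale (-0.11, SE 0.21, adjusted p = 0.709). In all 3, replicate 1 was above every wild-type array and replicates 2 and 3 were below. Sec63, a membrane partner that recruits the chaperone BiP to the channel, was 0.25 higher (SE 0.11, adjusted p = 0.132) without overlap. Sec62, which works with Sec63 on chains imported after translation, read 11.48, 11.23 and 11.39 in wild-type and 11.23, 10.68 and 10.65 in PiZ, a difference of -0.51 (SE 0.18) that missed the threshold with an adjusted p of 0.0696. Another Sec62 probe set, nearly as bright (mean 11.07 beside 11.11), stood at only -0.05 (SE 0.13). Its dimmer ones stood at -0.39 and -0.24, and none was called.

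Signal peptidase has Sec11a and Sec11c as its alternative catalytic subunits, and they did not move alike. Sec11c read 10.04, 9.94 and 9.87 in wild-type and 11.04, 10.65 and 10.95 in PiZ, a change of 0.93 (SE 0.13, adjusted p = 0.00417), and every PiZ array was above every wild-type array. Sec11a read 10.84, 10.74 and 10.75 in wild-type and 10.91, 10.35 and 10.32 in PiZ, a difference of -0.25 (SE 0.17, adjusted p = 0.304), with replicate 1 above and replicates 2 and 3 below the wild-type arrays. The other subunits, Spcs1, Spcs2 and Spcs3, were not called either. Spcs1 had the widest split of the 5: 11.03, 10.58 and 10.93 in wild-type against 11.37 in PiZ replicate 1 but 8.85 and 9.48 in the other PiZ arrays. Its change of -0.95 (SE 0.56, adjusted p = 0.243) had a 95% confidence interval from -2.26 to 0.36, and its sign turned with the array kept, being 0.52 for PiZ replicate 1 alone against wild-type. Spcs2 followed the same split with a change of -0.05 (SE 0.21, adjusted p = 0.88), and Spcs3 read 0.28 higher (SE 0.25, adjusted p = 0.424), carried by PiZ replicate 1 at 10.64 against 9.57 to 9.86 in wild-type. The median of the 5 was -0.05.

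Of the 8 measured oligosaccharyltransferase genes 3 were called higher and 0 lower, and their median change was 0.31. Rpn1, a subunit shared by both forms of the enzyme, read 11.72, 11.73 and 11.52 in wild-type and 12.42, 12.42 and 12.51 in PiZ, a change of 0.79 (SE 0.11, adjusted p = 0.00375). Stt3a, the catalytic subunit of the form that sits at the channel and works during translation, read 11.60, 11.76 and 11.51 in wild-type and 12.04, 12.47 and 12.22 in PiZ, a change of 0.62 (SE 0.14, adjusted p = 0.0201). Ddost, another shared subunit, read 9.66, 9.68 and 9.57 in wild-type and 10.43, 10.06 and 10.08 in PiZ, a change of 0.55 (SE 0.13, adjusted p = 0.0231). In all 3 genes the groups were apart. The order within PiZ differed, with replicate 1 highest for Ddost and lowest for Stt3a.

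Stt3b, the catalytic subunit of the form that works after translation, was 0.33 higher (SE 0.15, adjusted p = 0.14) with overlapping groups, and the difference between the catalytic subunits was not tested. The small shared subunit Dad1 was 0.28 higher (SE 0.15, adjusted p = 0.195), again with replicate 1 the highest array. Rpn2 read 10.35, 10.31 and 10.38 in wild-type against 10.75 in PiZ replicate 1 but 9.55 and 9.99 in the others (change -0.25, SE 0.27, adjusted p = 0.51). Ostc, which ties the Stt3a form to the channel, read 9.95, 9.66 and 9.46 in wild-type against 10.67 in PiZ replicate 1 but 8.47 and 8.65 in the others (change -0.43, SE 0.53, adjusted p = 0.566). In both genes the PiZ arrays thus lay on either side of the wild-type arrays. Tusc3, an oxidoreductase subunit of the Stt3b form, read 7.40, 7.02 and 7.45 in wild-type and 7.19, 5.98 and 5.49 in PiZ, a difference of -1.07 (SE 0.39) with an adjusted p of 0.083. Its PiZ replicate 1 lay within the wild-type range and the others far below.

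Among the 12 measured genes that build the dolichol-linked glycan or supply its sugars, 4 were called higher and 0 lower, with a median change of 0.20. Gmppb, which makes the mannose donor GDP-mannose, had the highest change of all 45 genes. It read 7.93, 7.68 and 7.60 in wild-type and 9.71, 8.81 and 9.30 in PiZ, a change of 1.54 (SE 0.22, adjusted p = 0.00438) and a 2.90-fold higher mean. The lowest PiZ array was still well above the highest wild-type array. Alg12, the mannosyltransferase whose promoter holds the full ERSE printed above, read 6.32, 6.52 and 6.25 in wild-type and 7.59, 7.60 and 7.82 in PiZ, a change of 1.31 (SE 0.12, adjusted p = 0.000987), which gave it the smallest adjusted p of the 45. Gfpt1, which starts the hexosamine pathway that yields UDP-N-acetylglucosamine, read 4.45, 4.15 and 4.45 in wild-type and 5.54, 5.49 and 5.27 in PiZ, a change of 1.08 (SE 0.13, adjusted p = 0.00249). Its arrays were apart by group, but the gene is dim (below 6), so the size of its change is uncertain. Alg2, which adds mannoses on the outer face of the ER, read 7.15, 7.20 and 7.05 in wild-type and 7.88, 7.97 and 7.97 in PiZ, a change of 0.80 (SE 0.10, adjusted p = 0.00287). Its PiZ arrays were nearly equal.

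The remaining 8 genes of glycan assembly were not called. Dpagt1, which starts the glycan and is the target of tunicamycin, was 0.39 higher (SE 0.18, adjusted p = 0.157). Among the later mannosyltransferases Alg9 was 0.23 higher (adjusted p = 0.157) without overlap and Alg3 0.12 higher (adjusted p = 0.53), while Alg1, which adds the innermost mannose, stood at -0.08 (adjusted p = 0.64) and Alg14, part of the enzyme that adds N-acetylglucosamine next to it, at -0.37 (adjusted p = 0.132). Alg14 stood at -0.01 from the wild-type mean in PiZ replicate 1 and at -0.53 and -0.57 in the other PiZ arrays. The genes that charge dolichol phosphate with single sugars stood lower in part: Alg5, which makes the glucose donor, differed by -0.64 (SE 0.23, adjusted p = 0.081). Its PiZ replicate 1, at 9.04, lay within the wild-type range of 9.03 to 9.22, and the other PiZ arrays were at 8.11 and 8.26. Dpm1, the catalytic subunit of dolichol-phosphate mannose synthase, read 9.58, 9.32 and 9.71 in wild-type against 9.78 in PiZ replicate 1 but 7.35 and 7.68 in the other PiZ arrays (change -1.27, SE 0.56, adjusted p = 0.136). By this probe set Dpm1 was split in the same way as Spcs1. Its other probe set, a dim one (mean 5.80), stood at -0.02 (SE 0.17). There the PiZ arrays stood at 0.31, -0.36 and -0.01 from the wild-type mean, in replicate order. The regulatory partner Dpm2 was 0.17 higher (adjusted p = 0.296) without overlap.

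The 5 genes of trimming and the folding check held 1 call in each direction, and their median change was 0.28. Uggt1, which puts a glucose back on misfolded glycoproteins so that calnexin and calreticulin bind them again, read 8.32, 8.56 and 8.33 in wild-type and 8.82, 9.38 and 9.45 in PiZ. All PiZ arrays were higher, replicate 1 the least, and the change was 0.82 (SE 0.18, adjusted p = 0.0189). Ganab, the catalytic subunit of glucosidase II, read 9.42, 9.53 and 9.34 in wild-type and 9.17, 8.88 and 8.87 in PiZ, and fell by 0.46 on the log2 scale (SE 0.13, adjusted p = 0.0368). This call ended in 13 of 19 alternative settings, among them the fit with the control transcript difference (adjusted p = 0.217). Its partner subunit Prkcsh, which retains the enzyme in the ER, was 0.28 higher without overlap but not called (SE 0.13, adjusted p = 0.155). Mogs, the glucosidase that acts before it, was 0.24 higher (SE 0.19, adjusted p = 0.371) through PiZ replicate 1, at 9.54, with the other PiZ arrays at 8.82 and 8.92 beside 8.81 to 8.92 in wild-type. Man1b1, a mannosidase that marks glycoproteins for disposal, read 6.84 in PiZ replicate 1, inside the wild-type range of 6.66 to 6.87, and 7.55 and 7.47 in the others (change 0.53, SE 0.19, adjusted p = 0.0845).

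**Figure D2:**
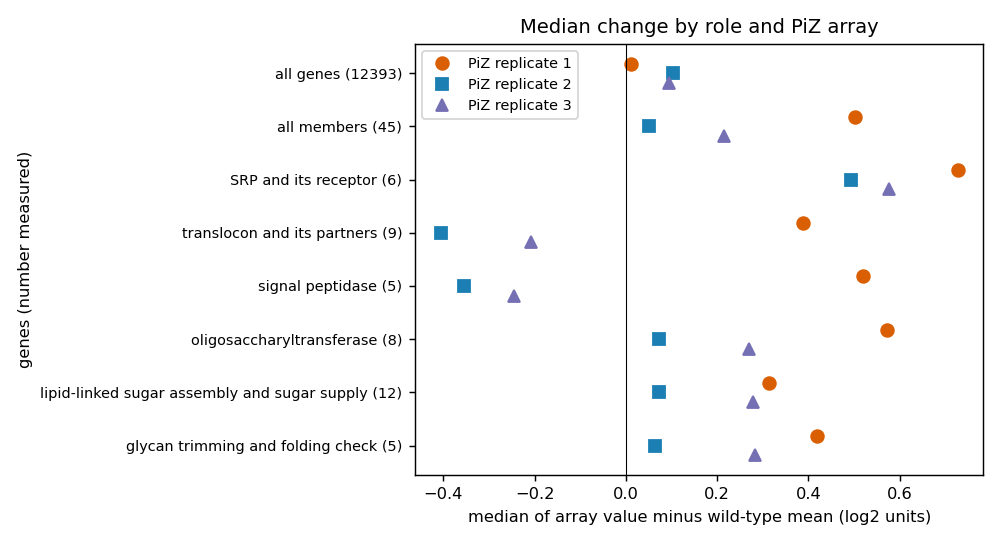
The median log2 change from wild-type of each role and of all genes is plotted for each PiZ array. PiZ replicate 1 stands above 0 in every role, while replicates 2 and 3 stand below 0 for the translocon (-0.41 and -0.21) and signal peptidase (-0.35 and -0.25).

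The 3 PiZ arrays differed from each other in this family more than the counts of calls show. PiZ replicate 1 was above the wild-type mean in 38 of 45 genes, replicate 2 in 24 and replicate 3 in 29, with median changes of 0.50, 0.05 and 0.22, whereas the medians of all genes were 0.01, 0.10 and 0.09. Set against single arrays, 37 members (82.2%) in PiZ replicate 1 were above all wild-type arrays, against 38% of all genes. In replicate 2 it was 20 (44.4%, against 50.2% of all genes) and in replicate 3 it was 28 (62.2%, against 49.6% of all genes). Below all wild-type arrays were 3 members in replicate 1 (35.6% of all genes), 19 in replicate 2 (34.1% of all genes) and 16 in replicate 3 (33.9% of all genes). In 10 members (22.2%) PiZ replicate 1 lay above and replicates 2 and 3 below all wild-type arrays, a pattern that 3.36% of all genes had. They were Srpr, Ssr2, Ssr3, Ssr4, Spcs1, Spcs2, Sec11a, Rpn2, Ostc and Dpm1. The opposite split was seen in 0 members and 6.21% of all genes. These shares of all genes were not matched for brightness, and the members are brighter (median level 9.48 against 6.76). Replicates 2 and 3 are also the arrays with the high control transcript differences. The parts of brightness, RNA quality and the livers themselves in this split were not tested.

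Fitted apart, PiZ replicate 1 against the wild-type arrays gave 24 members higher and 0 lower in limma (8.83% and 9.8% of all genes), with the lone PiZ array assumed to vary like the wild-type ones. PiZ replicates 2 and 3 against wild-type gave 14 higher and 15 lower (27.4% and 22.4% of all genes). Both fits use the same wild-type arrays, so what they share is not read as a result, and the difference between them was not tested. For Srprb they gave 1.53 and 1.27. For Ostc they gave 0.98 (adjusted p = 0.01996) and -1.13 (adjusted p = 0.00087). Ssr3 stood at 0.50 and -0.82, and Rpn2 at 0.40 and -0.58. For Stt3a the changes were 0.42 (adjusted p = 0.0784) and 0.72, and for Uggt1 0.42 (adjusted p = 0.0848) and 1.01. The split ran with the 3′ to 5′ sign, since PiZ replicate 1 had control transcript differences close to those of wild-type and replicates 2 and 3 did not. With the control transcript difference (mean of Gapdh and actin) entered as a covariate, 23 members were called higher and 0 lower (7% and 7.64% of all genes), 11 of them shared with the 13 of the fit without it, and the median change was 0.50. Stt3a (0.37, adjusted p = 0.123) and Uggt1 (0.39, adjusted p = 0.0854) were lost. The high covariate values occur in PiZ replicates 2 and 3 alone, so this fit leans on PiZ replicate 1.

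**Figure D3:**
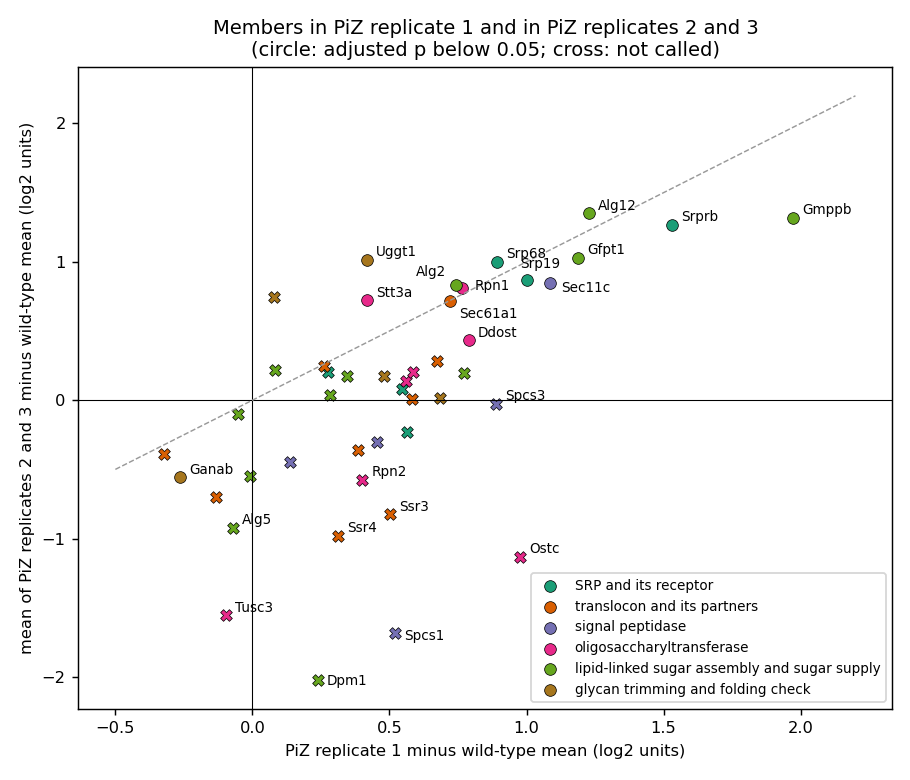
Each point is one of the 45 genes, with the log2 change from wild-type in PiZ replicate 1 on the horizontal axis and the mean change of PiZ replicates 2 and 3 on the vertical axis. The genes called higher lie above and right of 0, while Spcs1, Dpm1 and Ostc lie right of 0 and far below it.

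Several probe sets read different stretches of a gene's transcripts, although their positions were not used here. The 45 genes had 88 probe sets, of which 74 read above the wild-type mean in PiZ replicate 1, 46 in replicate 2 and 53 in replicate 3. Of the 23 genes with more than 1, all probe sets had 1 direction in 13 and both directions in 10, and opposite calls within a gene numbered 0 (19.9% of all probe sets were called). All 5 probe sets of Rpn1 were called higher, with changes of 0.61 to 0.80. Sec61a1 was less uniform: its 6 probe sets ran from -0.65 to 1.38, with 3 called higher, and all 6 read above the wild-type mean in PiZ replicate 1. Ssr1, not called by its brightest probe set, had another with changes of 0.99, 1.07 and 1.03 in the PiZ arrays (mean 1.03, SE 0.11, adjusted p = 0.00201 from limma over all probe sets). Ssr4, whose brightest probe set was split, had another called higher at 0.89 (SE 0.22, adjusted p = 0.029). Sec63, Srp14, Dad1 and Stt3b read higher without a call by their brightest probe sets but also had uncalled ones below 0. These stood at -0.64 for Sec63, -0.10 and -0.13 for Srp14, -0.35 for Dad1 and -0.37 for Stt3b. The remaining ones of Sec63 (0.01 and 0.10) and Srp14 (0.20) were above 0. The calls of Alg12, Alg2 and Gfpt1 each rest on 1 probe set, since the others of these genes stood at 0.02 to 0.07, 0.10 and -0.12 and were not called. Those of Srprb and Stt3a were shared by 2 of their 3 probe sets. The uncalled probe set of Stt3a was a bright one (mean 10.31) and stood at 0.02 (SE 0.23). Its PiZ arrays stood at 0.56, -0.38 and -0.13 from the wild-type mean, in replicate order. Averaged over a gene's probe sets, the change stayed past the threshold but was 0.47 for Alg12, 0.69 for Srprb, 0.48 for Gfpt1, 0.45 for Alg2 and 0.40 for Sec61a1. The lower call of Ganab was likewise not shared, since its other probe set, a dim one, stood at 0.09 and was not called. Both bright probe sets of Spcs1 had a change of -0.95 and the same split between PiZ arrays.

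**Figure D4:**
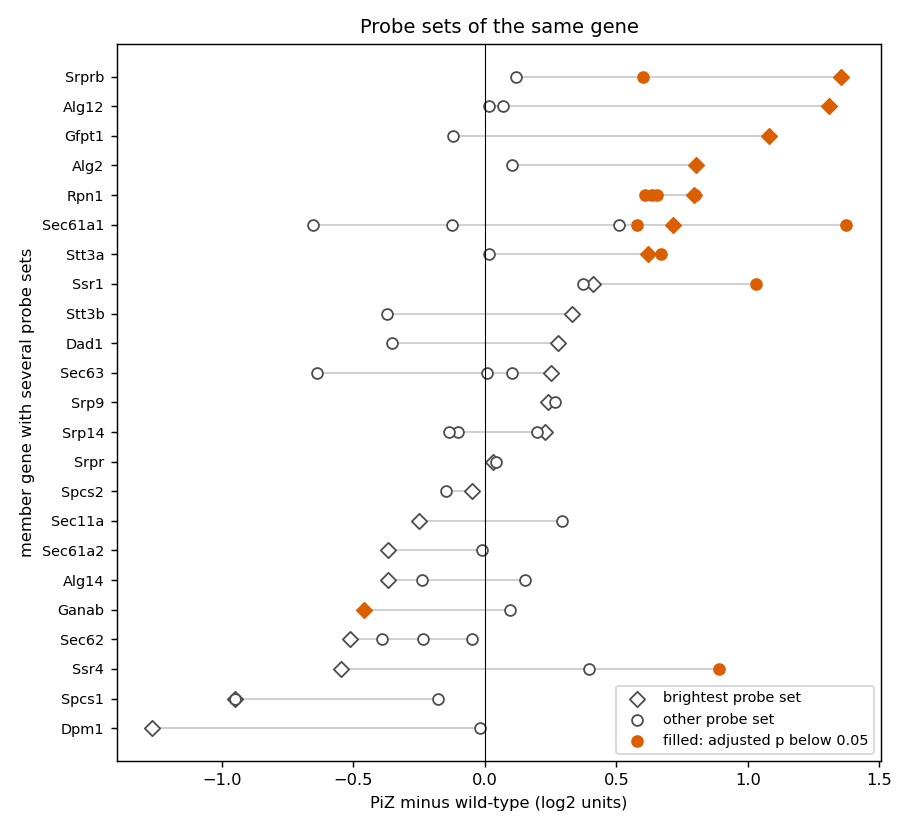
Log2 changes from wild-type are plotted for every probe set of the genes that have several, with the probe set that stands for the gene marked. The 5 probe sets of Rpn1 lie between 0.61 and 0.80, and the 6 of Sec61a1 spread from -0.65 to 1.38.

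Other genes of the same pathways, which are not among the 50, were read from a further list and had about as many lower as higher calls. Of 62 measured, 8 were called higher (12.9%) and 9 lower (14.5%), near the 11.3% and 12.3% of all genes, with a median change of -0.04. Of 19 genes of other entry routes 2 were higher and 3 lower. Get4, which hands tail-anchored proteins to the ER, was 0.62 higher (SE 0.12, adjusted p = 0.0104). Lower were the signal peptide peptidase relative Sppl2a at -0.73 (SE 0.12, adjusted p = 0.00589) and Naca at -0.63 (SE 0.18, adjusted p = 0.0438), a partner of nascent chains that keeps SRP off chains without a signal. The call of Naca ended in 9 of 19 alternatives, with -0.21 (adjusted p = 0.365) in the fit with the control transcript covariate. Of 4 further oligosaccharyltransferase subunits 1 was called, Krtcap2, at 10.36, 10.44 and 10.37 in wild-type and 11.05, 11.31 and 11.42 in PiZ, a change of 0.87 (SE 0.13, adjusted p = 0.00438), or 0.50 averaged over its probe sets.

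Sugar donor and dolichol genes had 3 of 16 higher and 1 lower. Gmppa, the partner of Gmppb, read 7.86, 7.84 and 7.61 in wild-type and 8.87, 8.95 and 9.15 in PiZ, a change of 1.22 (SE 0.13, adjusted p = 0.00141). Dhdds, which makes the dolichol chain, read 7.65, 7.59 and 7.46 in wild-type and 8.82, 8.33 and 8.49 in PiZ, a change of 0.98 (SE 0.15, adjusted p = 0.00506). For both, the lowest PiZ array was well above the highest wild-type array. Ugp2, which makes UDP-glucose, was called lower at -0.74 (SE 0.17, adjusted p = 0.0191), a call that ended in 8 of 19 alternatives, with -0.45 (adjusted p = 0.133) in the fit with the covariate. Of 10 genes that read or trim the glycan after the glucosidases, the chaperone Calr was higher, at 12.75, 12.93 and 12.56 in wild-type and 13.44, 13.62 and 13.60 in PiZ (change 0.81, SE 0.13, adjusted p = 0.00637). The Golgi mannosidase Man1a was lower, at 10.87, 10.86 and 10.85 in wild-type and 10.21, 9.58 and 9.31 in PiZ, a change of -1.16 (SE 0.22, adjusted p = 0.01005), or -0.67 with the covariate. Canx, the membrane-bound counterpart of Calr, was split between PiZ arrays as the 10 members above were, at 12.22, 12.01 and 11.99 in wild-type against 12.45 in PiZ replicate 1 but 11.16 and 11.51 in the others.

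Golgi glycan processing, which follows the ER steps, held more lower than higher calls, 4 against 1 of 13 measured, with a median change of -0.40. The median was -0.43 and -0.57 for PiZ replicates 2 and 3 but -0.12 for replicate 1, the first pair being the arrays with the high control transcript differences. St6gal1, the sialyltransferase that caps plasma glycoproteins of the liver, read 10.82, 10.55 and 10.61 in wild-type and 9.90, 8.62 and 8.52 in PiZ, a change of -1.64 (SE 0.34, adjusted p = 0.0145). St3gal4, another sialyltransferase, read 8.37, 7.81 and 8.16 in wild-type and 7.35, 6.88 and 6.82 in PiZ, a change of -1.10 (SE 0.19, adjusted p = 0.00868). Both were lower in every PiZ array, and in both PiZ replicate 1 was the nearest to wild-type. With the covariate St6gal1 stood at -0.72 (adjusted p = 0.0257) and St3gal4 at -0.69 (adjusted p = 0.0424). The call of St6gal1 ended in 5 of 19 alternatives, and that of St3gal4 with PiZ replicate 1 alone (adjusted p = 0.0542). Slc35a2, the carrier of UDP-galactose, was higher, at 7.58, 7.77 and 7.40 in wild-type and 8.15, 8.71 and 8.71 in PiZ, a change of 0.94 (SE 0.18, adjusted p = 0.0115). Its call ended in 4 of 19 alternatives, with 0.23 (adjusted p = 0.133) averaged over its probe sets, and the covariate gave 0.53.

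**Figure D5:**
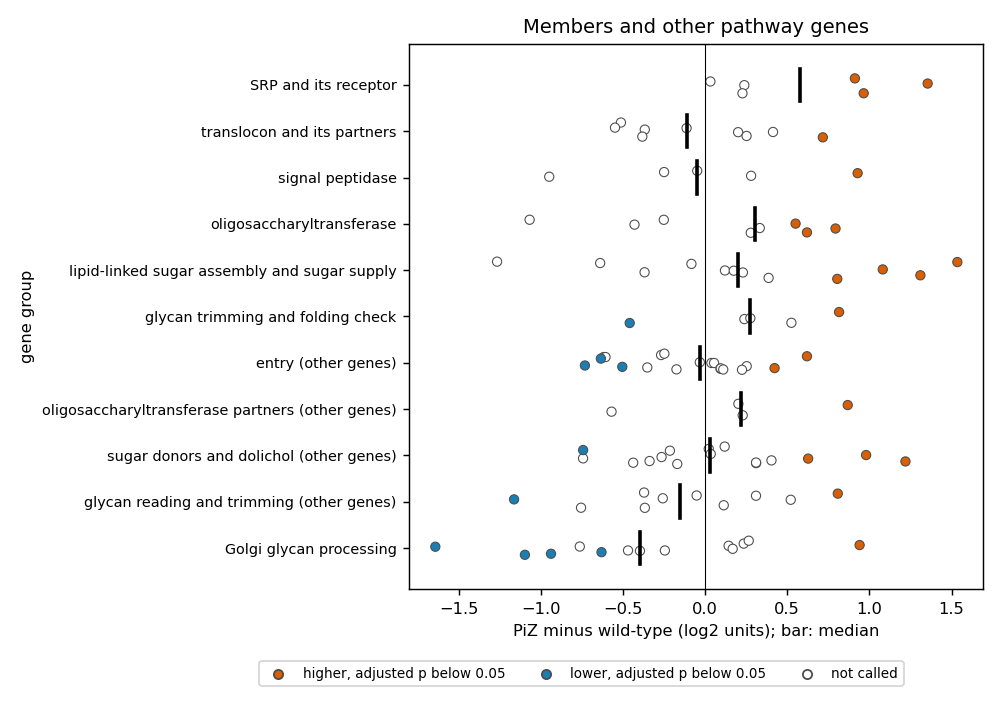
Log2 changes (PiZ minus wild-type) are plotted for each gene of the 6 roles and of the 5 groups of other pathway genes, one point per gene, with called genes marked and the median of each group shown. The SRP system has the highest median of the 6 roles (0.58), and Golgi glycan processing has a median of -0.40.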

How the data were processed

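Total liver RNA was measured on 6 arrays, 3 of each genotype. The authors deposited log2 intensity values for each probe set and used affy and RMA, per the submitters' processing notes. For neither is a version given in the sources used here. RMA equalises the arrays' distributions, so a shift shared by most genes would be removed. The labels call the samples biological replicates but do not state that each array holds RNA of 1 mouse. Of 22690 probe sets 64 were controls, 20380 had 1 gene in the platform annotation, 691 several and 1555 none. Entrez identifiers of 20351 were found, and 0 symbols were updated. No filter on dim probe sets was used. PiZ and wild-type arrays were set against each other in R 4.3.3 by limma 3.58.1 (lmFit, eBayes, two-sided, Benjamini-Hochberg over 12393 genes, threshold 0.05), tested on simulated data. Tables, promoter searches and figures were made in Python 3.11.15 with pandas 2.3.3, numpy 2.4.6 and matplotlib 3.10.9.

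The members and lists were chosen with earlier results of these data known. Array values are given in each role for up to 6 members that passed (the 2 with the smallest p where fewer than 2 passed), and of the other pathway genes up to 3 that passed in each subgroup are named. Further members, and Canx, were given values after these had been seen. Alternatives changed the probe set choice, dim gene filter, scaling, variance model, array weights, covariate, replicate block, arrays and threshold.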

Additional observations from a re-analysis of the deposited data

How the results depend on the processing

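Of the 13 members called higher, Srprb, Srp68, Srp19, Sec61a1, Sec11c, Rpn1, Gmppb, Alg12 and Alg2 passed in 19 of 19 alternatives and Gfpt1 in the 18 that kept it; Ddost passed in 15 and Stt3a and Uggt1 in 12 each. Single arrays whose removal ended a call were each wild-type array for Ddost; these and PiZ replicate 3 for Stt3a; wild-type replicates 1 and 3 and PiZ replicates 2 and 3 for Uggt1; and any array but PiZ replicate 1 for Ganab, Naca and Ugp2. For St6gal1 they were wild-type replicates 1 and 3 and PiZ replicates 2 and 3, for Slc35a2 wild-type replicate 3 and for Get4 wild-type replicate 2. Members called higher numbered 23 with the control transcript covariate and 24 with PiZ replicate 1 alone, where the median change was 0.498 and 0.501, and 10 to 14 with each array left out in turn (median 0.137 to 0.317). The 14 came from leaving out PiZ replicate 1, where 27.4% of all genes were higher. With any other single array left out, members called higher numbered 10 to 12 (4.18% to 6.87% of all genes). Cyclic loess gave 19 (11.2% of all genes) and further quantile normalization 16 (10.9% of all genes). Members called lower numbered 0 with the mean over probe sets, centring on reference genes and the covariate. The same held at an adjusted p under 0.01 and at a log2 change of at least 0.5. In these settings 3.79% to 12.4% of all genes were lower. Members called lower numbered 12 with array weights (23.2% of all genes) and 15 with PiZ replicates 2 and 3 alone (22.4% of all genes). Leaving out PiZ replicate 1 is that same fit, so the 19 alternatives hold it under both names. Without any other single array 0 members were lower (4.44% to 7.54% of all genes). Over all genes 6520 were called with array weights, 1814 with the covariate, 6175 with PiZ replicates 2 and 3 alone, 914 at 0.01, and 1068 (without wild-type replicate 3) to 6175 (without PiZ replicate 1) with each array left out. Spcs1 turned from -0.95 to 0.64 with the covariate and 0.52 with PiZ replicate 1 alone; its cause was not tested. The replicate numbers were not found to pair the mice: same-numbered arrays' deviations correlated at 0.264, 0.285 and -0.0345. With the replicate block 3225 genes were called, with 13 members higher (12% of all genes) and 3 lower (14% of all genes). The number of arrays limits the precision.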
